A study of Mus musculus with 6 samples.

Results

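Cadherins hold neighbouring cells together through calcium-dependent contacts between their extracellular repeats. Classical cadherins carry the adherens junction and are tied to actin through catenins, while protocadherins and the large atypical cadherins act in cell recognition and tissue polarity. Desmosomes are the second kind of cadherin-based contact, in which plaque proteins anchor the junction to keratin filaments. In the mammary gland the basal myoepithelial layer is known for P-cadherin and the luminal layer for E-cadherin.

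The genes described are 10 of the 651 genes in the authors' deposited tables, chosen by symbol as cadherin superfamily genes (Cdh3, Cdh6, Cdh13, Pcdh7, Pcdhb17, Celsr2 and Fat2) or desmosomal genes (Dsp, Perp and Pkp1). They were selected with the direction of each already known, and the tables hold only genes past the authors' thresholds, so membership in the lower list is not a finding. All 10 had a mean count of at least 10 in both groups. RNA sequencing compared mammary epithelial cells (MECs) without oestrogen receptor α, the germ-line knockout ERα−/−.GFP+, with WT.GFP+ MECs, 3 samples of each genotype. Both kinds of donor carry GFP driven by an actin promoter on a C57Bl6 background, and cells of either genotype were delivered intraductally to opposite glands of NSG females, an immunodeficient host strain. The hosts were pregnant when GFP+ cells were sorted, glands were pooled for cell suspensions by the study's methods, and neither age nor day of pregnancy of the sequenced glands is given in the labels. No label says which samples came from separate hosts.

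The tables give for each gene the mean count of a genotype and its mean log2 CPM, the logarithm of the counts scaled to library size (CPM), and name the genotypes only as selection 1 and selection 2. Which selection is WT.GFP+ follows the direction stated for the study, so no direction here is an independent result, and Esr1 had no listed value with which to check it. The 6 library sizes could be worked out from genes with few reads, and were 26063492 to 27104327 effective reads in WT.GFP+ and 24826202, 26924309 and 32604158 in ERα−/−.GFP+. With these sizes, the total and the mean log2 CPM of a gene limit how far apart its 3 libraries can lie, and the spread between libraries is given below as the lowest and highest SD that the values allow. The standard error of a difference was taken from these SDs, with all 6 libraries treated as independent. It does not use the pairing of opposite glands in a host. Which library is which sample is not known. No test between the genotypes was run, since values per sample were not used here, and the statements on overlap compare these limits only. The listed genes had passed the authors' thresholds on the same libraries. Separation of the genotypes was therefore favoured by that selection and is no independent result. In bulk samples, fewer cells of a type and less RNA per cell cannot be told apart.

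Each of the 10 genes had a lower mean level in ERα−/−.GFP+ than in WT.GFP+ MECs, as had 86.9% of all listed genes. Their differences in mean log2 CPM (ERα−/−.GFP+ minus WT.GFP+) lay between −2.77 for Cdh6 and −1.17 for Celsr2, with a median of −1.79. The median over the 566 listed lower genes was −1.74, and over all 651 listed genes it was −1.65. The 7 cadherin superfamily genes had a median of −1.82 and the 3 desmosomal genes one of −1.76. Lower by more than 4-fold were 3 of the 10 genes, Cdh6, Pcdhb17 and Pkp1, beside 24.6% of all listed genes, and lower by more than 3-fold were 7 of the 10, beside 55.8%.

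**Figure D1:**
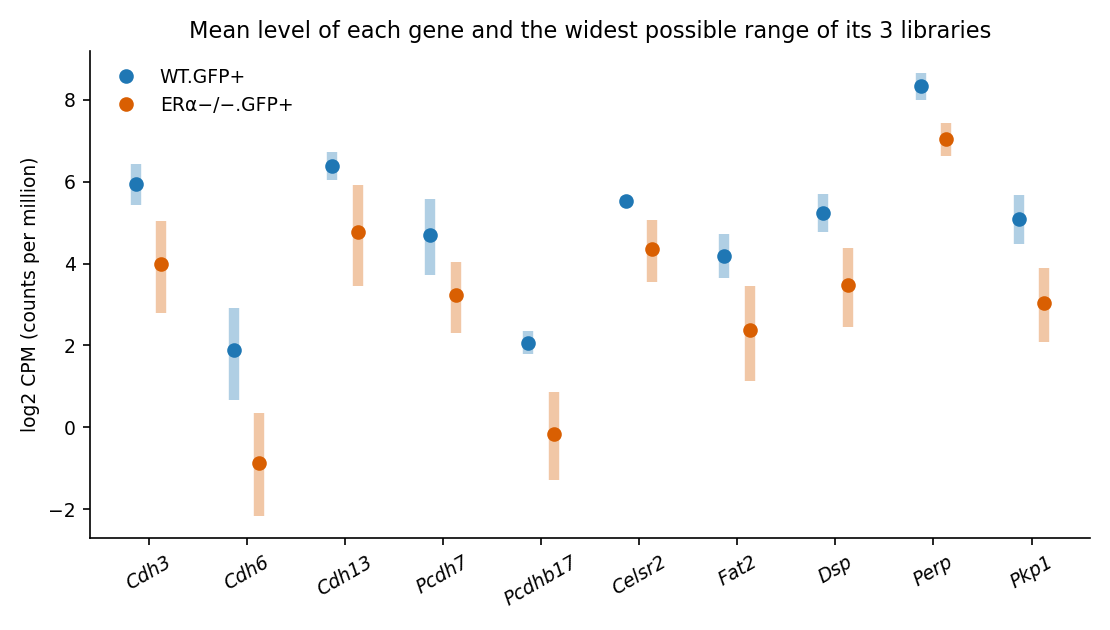
Mean log2 CPM of the 10 genes in WT.GFP+ (blue) and ERα−/−.GFP+ MECs (orange), with 3 libraries per genotype. Points are the authors' means and bars run from the lowest to the highest value that any of the 3 libraries can have, and only for Pcdh7 do the bars of the genotypes overlap.

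Among the classical cadherins, Cdh3 encodes P-cadherin, the adherens junction cadherin of basal cells. It lies on chromosome 8 of GRCm38 from 106510891 to 106557297 and the authors' mean count was 1691 for WT.GFP+ against 490 for ERα−/−.GFP+. Its mean log2 CPM was 5.95 in WT.GFP+ (SD between 0.37 and 0.44, n = 3) and 3.99 in ERα−/−.GFP+ (SD between 0.56 and 1.03, n = 3). The lowest WT.GFP+ library was at 5.44 or above and the highest ERα−/−.GFP+ library at 5.03 or below, so the genotypes did not overlap. The difference was −1.95 with a standard error between 0.39 and 0.65. Cdh1, which encodes E-cadherin, begins 46053 bases after the end of Cdh3 on the same strand and was not among the listed genes.

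Cdh6, a type II classical cadherin on chromosome 15 from 13028701 to 13173675, had the lowest mean log2 CPM of the 10 genes in both genotypes and the largest difference. By mean count in WT.GFP+, Pcdhb17 was slightly lower, at 112 reads against 116. The 3 libraries together held 347 reads for WT.GFP+ against 55 for ERα−/−.GFP+. In the ERα−/−.GFP+ group only 3 sets of whole reads gave the deposited mean, which were 6, 18 and 31 reads, or 8, 12 and 35, or 14, 34 and 7, in the smallest, the middle and the largest library. In WT.GFP+ the lowest library held between 43 and 50 reads and the highest between 170 and 198. In every such set each WT.GFP+ library stood above each ERα−/−.GFP+ library, by a gap of at least 0.33 in log2 CPM. The level was thus uneven within both genotypes, with an SD of at least 0.96 in WT.GFP+ and at least 0.88 in ERα−/−.GFP+. From the mean counts Cdh6 was 6.64-fold lower, with an exact 95% interval from 4.98 to 8.99 that covers counting error only, and on the log2 CPM scale the difference was −2.77 with a standard error between 0.75 and 0.96.

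Of the atypical cadherins, Cdh13 encodes T-cadherin, which is held in the membrane by a lipid anchor and has no cytoplasmic tail. It spans 1041189 bases of chromosome 8, from 118283733 to 119324921. The authors' mean count was 2260 for WT.GFP+ against 868 for ERα−/−.GFP+. The SD of log2 CPM was between 0.25 and 0.31 in WT.GFP+ and between 0.65 and 1.14 in ERα−/−.GFP+ (n = 3 each). The closest approach of the genotypes was 0.11, the smallest gap among the 9 genes whose libraries did not overlap, and the difference of −1.60 had a standard error between 0.40 and 0.68.

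Celsr2, a multi-pass cadherin of the planar cell polarity pathway on chromosome 3 from 108390851 to 108415552, had the smallest difference. Its WT.GFP+ libraries were nearly level, at 5.53 in mean log2 CPM with an SD of at most 0.10, while the ERα−/−.GFP+ libraries had a mean of 4.36 and an SD between 0.27 and 0.70 (n = 3 each). The genotypes did not overlap, with a gap of at least 0.35, and the difference of −1.17 had a standard error between 0.16 and 0.41. Fat2, a giant FAT cadherin on chromosome 11 from 55250609 to 55336564, went from a mean of 4.19 to 2.37, a difference of −1.82 with a standard error between 0.41 and 0.68, and its genotypes were apart by at least 0.20.

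The protocadherins Pcdh7 and Pcdhb17 differed in how even their libraries were. Pcdh7, a non-clustered protocadherin on chromosome 5 from 57717967 to 58133230, averaged 762 reads for WT.GFP+ against 275 for ERα−/−.GFP+, and was the single gene of the 10 for which an overlap of the genotypes was possible. Its lowest WT.GFP+ library could lie between 3.72 and 4.28 in log2 CPM and its highest ERα−/−.GFP+ library between 3.47 and 4.04. The difference was −1.47 with a standard error between 0.47 and 0.67. A total of 2235 exonic bases of Pcdh7 are shared with the non-coding gene 4932441J04Rik on the other strand, and reads without strand could belong to either. 4932441J04Rik was itself listed as lower, with mean counts of 8.67 and 1.33 and a difference of −2.61.

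Pcdhb17 is a gene of a single exon in the clustered β protocadherins of chromosome 18, whose members are alike in sequence, so that reads could have been split among them by the counting and its value is uncertain. Its 90 reads in ERα−/−.GFP+ MECs fitted 1 set of whole reads, 10 reads in the smallest library, 49 in the middle one and 31 in the largest. These correspond to −1.28, 0.87 and −0.06 in log2 CPM, an SD of 1.08. The 336 reads in WT.GFP+ were spread evenly, with the lowest library between 93 and 99 reads and the highest between 125 and 132, an SD between 0.19 and 0.25. Every WT.GFP+ library was at least 0.91 above the highest ERα−/−.GFP+ library, the widest gap of the 10 genes, and the difference of −2.22 had a standard error between 0.63 and 0.64. From the mean counts it was 3.93-fold lower, with an exact 95% counting interval from 3.10 to 5.01.

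Of the desmosomal genes, Dsp encodes desmoplakin, which joins the plaque to keratin filaments, Pkp1 encodes plakophilin 1, a plaque protein of stratified epithelia, and Perp encodes a membrane protein of desmosomes that is a known target of p63. Pkp1, on chromosome 1 from 135871395 to 135919207, differed most, averaging 943 reads against 244, with a difference of −2.05 with a standard error between 0.35 and 0.57. Dsp, on chromosome 13 from 38151294 to 38198577, averaged 1032 reads against 334, with a difference of −1.76 with a standard error between 0.32 and 0.57. Perp, on chromosome 10 from 18845020 to 18857073, was the most abundant of the 10 genes, averaging 8691 reads for WT.GFP+ against 3731 for ERα−/−.GFP+. Its difference was −1.28 with a standard error between 0.13 and 0.28, and its SD over the ERα−/−.GFP+ libraries was at most 0.38, the lowest such limit of the 10. The genotypes were apart by at least 0.59 for Pkp1, 0.38 for Dsp and 0.57 for Perp. Dsp shares 499 exonic bases with a gene on the other strand.

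Counted together, the libraries of the genotypes did not overlap, with WT.GFP+ above, for 9 of the 10 genes. The same held, in that direction, for 73.6% of all listed genes and for 84.6% of the listed lower genes. Such separation was favoured by the way the listed genes were selected. The exact counting interval of the fold was narrowest for Perp, from 2.40 to 2.51 around 2.45-fold, and widest for Cdh6, from 4.98 to 8.99 around 6.64-fold. In 6 of the 10 genes, Cdh3, Cdh13, Pcdhb17, Celsr2, Fat2 and Dsp, the smallest possible SD in ERα−/−.GFP+ was above the largest possible SD in WT.GFP+, and in 0 of the 10 was the reverse true. Among the 566 listed lower genes these shares were 51.4% and 14.3%.

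**Figure D2:**
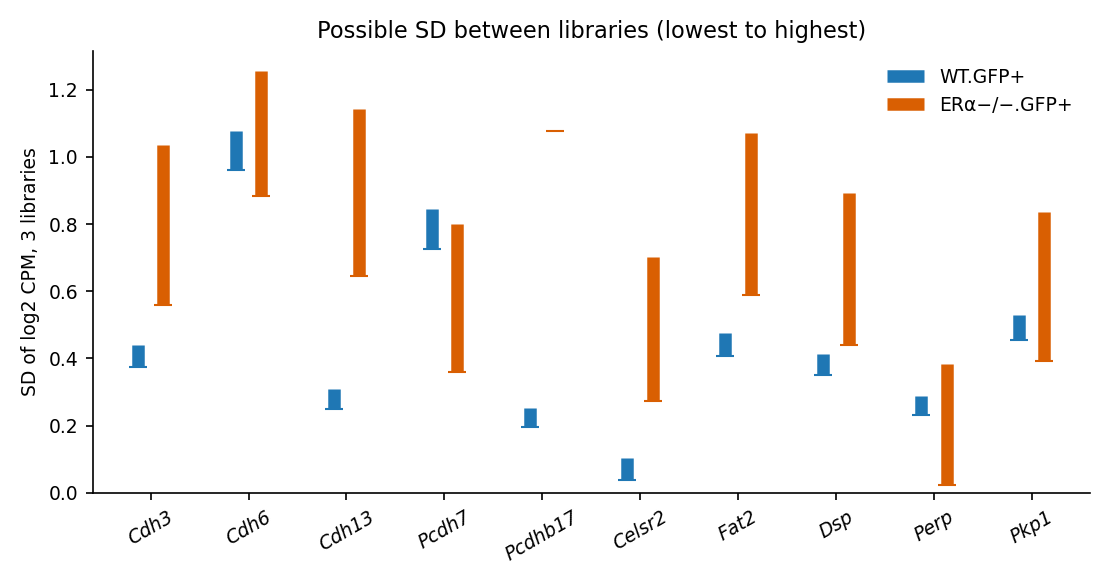
SD of log2 CPM over the 3 libraries of WT.GFP+ (blue) and of ERα−/−.GFP+ MECs (orange) for each of the 10 genes, drawn from the lowest to the highest SD that the deposited means allow. The ERα−/−.GFP+ range lies wholly above the WT.GFP+ range for 6 genes, and the single mark for Pcdhb17 stands for the 1 possible value of 1.08.

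Levels of different genes were compared per length, as RPKM, the CPM of the mean count over the kilobases of annotated exon. In WT.GFP+ MECs Perp stood at 167 RPKM, Cdh3 at 14.4, Cdh13 at 7.53, Pkp1 at 7.02, Celsr2 at 4.03, Dsp at 3.997, Pcdh7 at 2.69, Fat2 at 1.30, Pcdhb17 at 0.900 and Cdh6 at 0.480. Perp thus held 79.7% of the summed RPKM of the 10 genes. In ERα−/−.GFP+ MECs the order was the same except that Celsr2, at 1.84 RPKM, came before Pkp1, at 1.72. The neighbours Cdh13 and Pkp1, and Celsr2 and Dsp, were closer in WT.GFP+ than the spread between libraries. Cdh13 and Cdh3 changed places when the length of the longest transcript was used, since Cdh13 has 11233 bases of annotated exon but 4565 in its longest transcript.

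**Figure D3:**
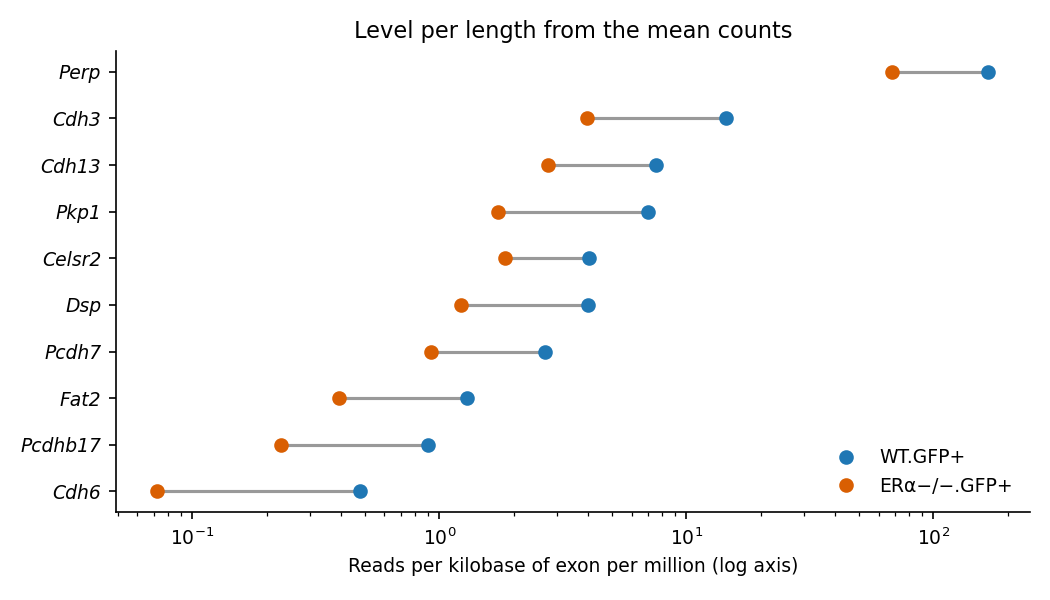
RPKM of the 10 genes on a log axis in WT.GFP+ (blue) and ERα−/−.GFP+ MECs (orange), ordered by the level in WT.GFP+. The ERα−/−.GFP+ point lies to the left of the WT.GFP+ point for each gene, and Perp stands apart at 167 and 68.0 RPKM.

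The size of the difference did not place the 10 genes together among the listed lower genes. Ranked from the largest difference of the 566 genes, Cdh6 was at position 61, Pcdhb17 at 112, Pkp1 at 149, Cdh3 at 177, Fat2 at 247, Dsp at 277, Cdh13 at 353, Pcdh7 at 412, Perp at 514 and Celsr2 at 546. The quartiles of the lower genes were −2.06 and −1.44, and 6 of the 10 genes lay between them.

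**Figure D4:**
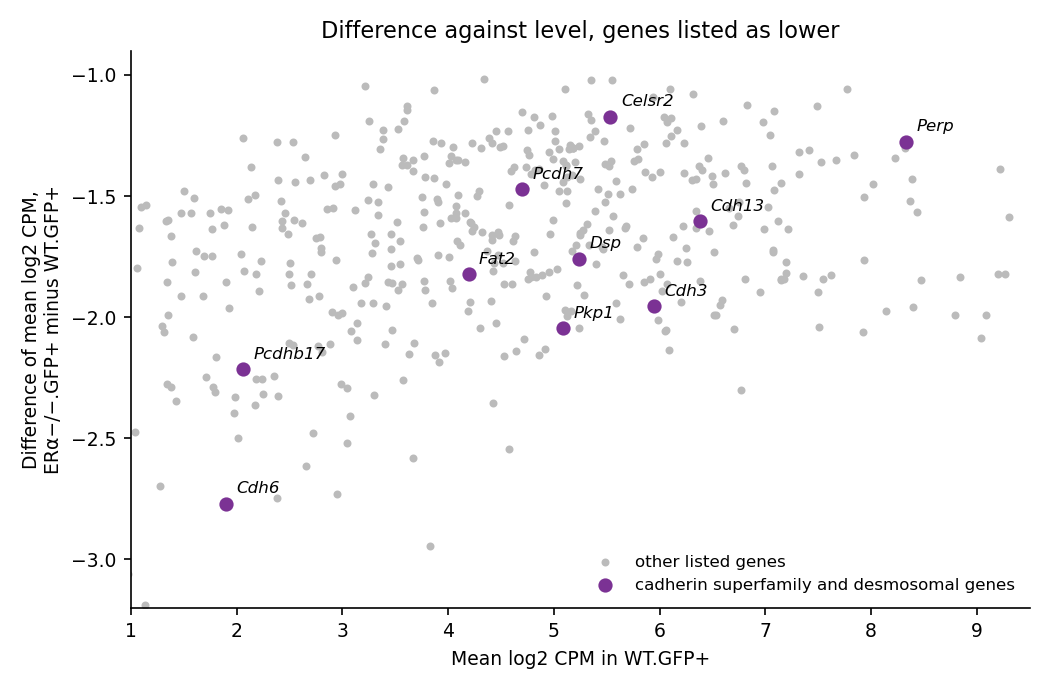
Difference of mean log2 CPM (ERα−/−.GFP+ minus WT.GFP+) against mean log2 CPM in WT.GFP+ for genes listed as lower, with the 10 named genes in purple and other genes in grey. Genes beyond the ends of the axes are not drawn, and the 10 genes run from Cdh6 at −2.77 to Celsr2 at −1.17.

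Other genes of these families and junctions were compared from lists of symbols. Of 18 classical cadherin genes 2 were listed as lower, of 22 atypical cadherin genes 3, of 12 non-clustered protocadherins 1, of 22 β protocadherins 1 and of 15 desmosomal genes 3, and these are the 10 genes themselves. In these lists 0 genes were listed as higher, beside 85 of all 651 listed genes. The share of all tested genes that were listed is not known here. These counts of listed genes, and those of the markers below, are therefore descriptions only. The desmogleins, the desmocollins, Jup, Pkp2 and Pkp3 were not among the listed genes, and a difference below the authors' limits would not be seen. Of 14 catenin and adherens junction genes 2 were listed as lower, Arvcf, a catenin that binds the cadherin tail, with a difference of −1.22 and a standard error between 0.23 and 0.46, and Ctnnal1, an α-catenin-like gene, with −1.36 and a standard error between 0.31 and 0.53. Of 13 planar cell polarity genes Celsr2 was the 1 listed.

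Most markers of the basal layer were also listed as lower. Of 16 basal and myoepithelial markers 14 were listed, each as lower, as were 86.9% of all listed genes. Itga6 and Itgb4 were not listed. For 14 of the 14 the libraries of the genotypes did not overlap, beside 84.6% of the listed lower genes. The summed level of the 14 markers was 7786 CPM for WT.GFP+ against 2121 CPM for ERα−/−.GFP+, or 3.67-fold lower. None was near 0, the least counted being Trp63 at a mean of 521 reads in ERα−/−.GFP+. The 14 differences were close together, between −2.09 for Cnn1 and −1.73 for Krt15 with a median of −1.93, a range of 0.36, while the 10 cadherin and desmosomal genes covered a range of 1.60. Inside the basal range were 4 genes, Cdh3, Fat2, Dsp and Pkp1. Below it were Cdh6 and Pcdhb17, the least counted of the 10, and above it were Cdh13, Pcdh7, Perp and Celsr2. The lowest possible standard error exceeded the basal range for Cdh6 (0.75), Pcdhb17 (0.63), Pcdh7 (0.47), Fat2 (0.41), Cdh13 (0.40) and Cdh3 (0.39). Each is the error of a gene's own difference between genotypes. It does not measure the spread of gene-to-gene differences within the same libraries, which the group means do not give. Whether these genes lie inside or outside the basal range was therefore not tested. By mean counts Pcdhb17 was at −1.97, between the basal markers Myh11 at −2.02 and Krt15 at −1.57. On that scale Pkp1, at −2.03, was just below Myh11. Of 17 lymphocyte markers 9 were listed, each as higher, as were 85 of all 651 listed genes. Their summed level was 2880 CPM for WT.GFP+ against 6608 CPM for ERα−/−.GFP+. For 7 of these 9 the libraries of the genotypes did not overlap. The share over all listed higher genes was not computed, so this count is a description only. Of 15 luminal markers Pgr was listed as lower at −1.82, and 0 of 9 milk, 7 fibroblast and 6 endothelial genes were listed. The part of the basal and lymphocyte markers in the differences of the 10 genes was not tested.

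**Figure D5:**
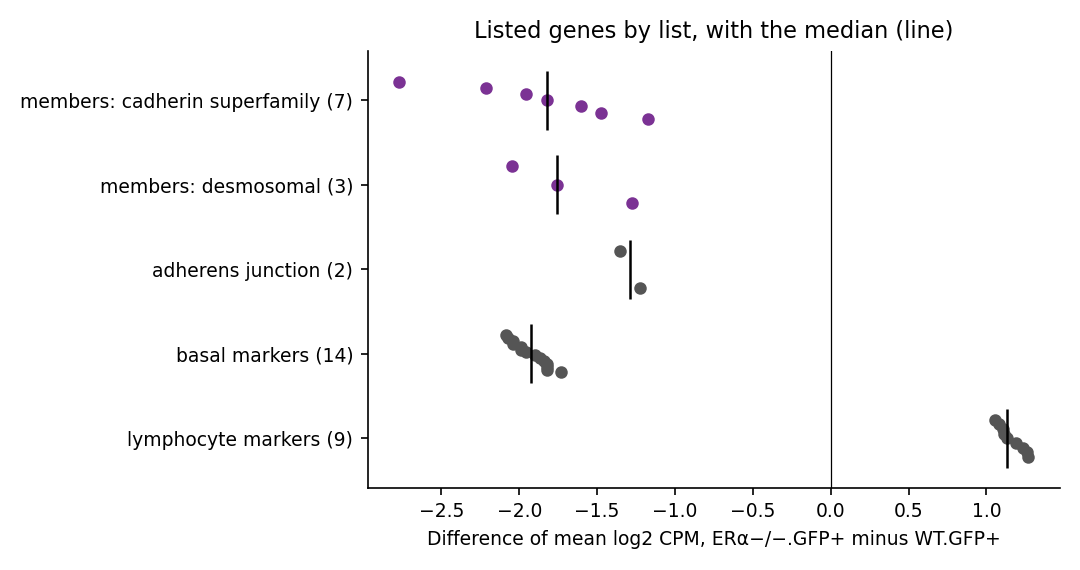
Difference of mean log2 CPM (ERα−/−.GFP+ minus WT.GFP+) of the listed genes of each list, 1 point per gene with the median as a line and the number of genes in brackets. The basal markers lie between −2.09 and −1.73, the 10 cadherin and desmosomal genes in purple between −2.77 and −1.17, and the lymphocyte markers above 0.

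Promoter windows from RefSeq, 250 bases before to 50 after a start site on GRCm38.p6, were at hand for 5 of the 10 genes, Cdh6, Celsr2, Dsp, Fat2 and Pcdh7. The 3 shown are those of the genes with the largest and the smallest difference and of desmoplakin, and capitals mark every match, on either strand, to 5 motifs. These were the full oestrogen response element (a half-site and its inverse, 3 bases apart), the half-site GGTCA, which the full element contains, the AP-1 site TGANTCA, the Snail-type E-box CACCTG and the GC box GGGCGG.
Cdh6, chr15:13173626-13173925, minus strand: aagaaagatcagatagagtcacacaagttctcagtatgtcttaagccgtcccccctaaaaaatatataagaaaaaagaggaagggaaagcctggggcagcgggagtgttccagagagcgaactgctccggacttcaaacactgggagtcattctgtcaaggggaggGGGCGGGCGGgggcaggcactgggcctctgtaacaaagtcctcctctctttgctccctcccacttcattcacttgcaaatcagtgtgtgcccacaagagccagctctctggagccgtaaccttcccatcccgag
Celsr2, chr3:108415530-108415829, minus strand: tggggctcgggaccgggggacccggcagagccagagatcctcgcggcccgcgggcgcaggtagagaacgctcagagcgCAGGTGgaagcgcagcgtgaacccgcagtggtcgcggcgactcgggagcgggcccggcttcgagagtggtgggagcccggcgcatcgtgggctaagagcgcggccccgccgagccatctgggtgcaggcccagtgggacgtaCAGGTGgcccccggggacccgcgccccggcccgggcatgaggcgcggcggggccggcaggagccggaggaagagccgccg
Dsp, chr13:38151044-38151343, plus strand: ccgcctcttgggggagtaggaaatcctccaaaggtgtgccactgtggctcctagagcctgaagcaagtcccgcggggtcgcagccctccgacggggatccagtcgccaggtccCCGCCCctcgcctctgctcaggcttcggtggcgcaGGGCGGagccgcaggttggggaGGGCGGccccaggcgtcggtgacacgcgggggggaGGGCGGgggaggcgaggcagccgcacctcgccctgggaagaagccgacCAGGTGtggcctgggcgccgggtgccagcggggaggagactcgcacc

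The 3 windows differed in composition. Guanine and cytosine made up 53.0% of the Cdh6 window, 76.3% of that of Celsr2 and 73.0% of that of Dsp, beside a median of 52.7% over 32851 windows. The full oestrogen response element was in 0 of the 5 windows and in 0.0700% of all windows, and its half-site in 1 of the 5, that of Fat2, and in 40.5% of all, though the RefSeq start of Fat2 is 24307 bases from the start of its GENCODE model. The AP-1 site was in 0 of the 5 and in 7.81% of all. The Snail-type E-box was in 3 of the 5, Celsr2 with 2 copies, Dsp and Pcdh7, and in 20.2% of all. The GC box was in 2 of the 5, Dsp with 4 copies and Cdh6 with 2 that overlap, and in 35.7% of all. These matches describe the letters of the windows only.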

How the data were processed

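RNA of GFP+ cells from 3 WT.GFP+ and 3 ERα−/−.GFP+ samples was turned into cDNA by template switching and read from a single end over 85 nt. The authors aligned the reads to mm10, counted reads by gene, filtered on expression in ASAP and tested with edgeR. The counter, annotation and strand setting are not given in the sources used here. The tables that the authors deposited hold the listed genes, past more than 2-fold at an FDR under 0.05, with the mean raw count and the mean log2 CPM of each genotype, deposited as selections. Fold change, p-value and FDR columns hold the authors' own comparison and were not used.

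Every value was computed from the deposited means with Python 3.11.15, numpy 2.4.6, pandas 2.3.3 and scipy 1.17.1, and drawn with matplotlib 3.10.9. The difference is that of the mean log2 CPM. Genes with 0 reads share 1 value, which gave the mean library size at a prior count of 0.25, and genes with 1 to 30 reads gave the size of each library. All 107 such values lay within 0.0001 of a set of whole reads. Library sizes are effective sizes, as used by the authors. For totals up to 400 reads all sets of whole reads were tried, and above that reads were treated as real numbers. The procedure was also run on simulated data, with the fit started close to the true sizes and given the true mean size and prior count. That run therefore does not test whether unknown sizes would be found. Folds are mean counts over the mean library sizes, with exact binomial 95% intervals for counting error only. No test was run, as values per sample were not used here. Positions came from GENCODE M21 for GRCm38, matched by identifier for 650 of 651 genes. The genes and lists were chosen with earlier results of these data known, and the named genes were the 10 genes and the listed genes of the lists, of which 1 list is not reported here.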

Additional observations from a re-analysis of the deposited data

How the results depend on the processing

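Each of the 10 genes stayed lower in ERα−/−.GFP+ MECs under 4 alternatives (mean counts over depth, with 1 read added, with the depth taken from genes of at least 100 reads, and over the recovered library sizes, the last chosen after seeing the data). All 40 values stayed within the spread between libraries, and the largest move was 0.24 in log2. Depth was the median ratio of mean count to mean CPM over well-counted listed genes. All alternatives thus reuse the same deposited means of genes already selected as lower. Staying lower and near the main value was largely fixed in advance, so these values are no independent support. With a limit of 3-fold in place of 4-fold, 7 genes passed in place of 3. Over the recovered library sizes 2 passed, since Pcdhb17 came to −1.97. The median moved between −1.79 and −1.71. By longest transcript 8 of the 10 genes kept their place in the order of RPKM. With the tolerance doubled, or without the prior count, both chosen after seeing the data, 9 genes again had no overlap. No paired analysis was possible because the genotypes share only the number 2 and the columns carry no sample, and for the same reason fits without each replicate were not run. Counting error limits Cdh6 and Pcdhb17 most, with 55 and 90 reads in ERα−/−.GFP+ MECs.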

Other observations

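The uneven level of Pcdhb17 over the ERα−/−.GFP+ libraries, lowest in the smallest library, was set beside the genes of the lower list with 1 compatible set of whole reads. Among 53 such genes with 15 to 400 reads in the ERα−/−.GFP+ group, the level was lowest in the smallest library for 32, in the middle one for 18 and in the largest for 3. It was highest in these libraries for 5, 21 and 27 genes. Genes with 1 such set are not a random draw of the lower genes, so these counts describe them only.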
